A study of Rattus norvegicus with 70 samples.

Results

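Chromaffin granule peptides and Ret are 10 genes, listed by symbol, of the 19441 genes in each table: the peptide precursors Gal, Vgf, Penk and Adcyap1, the granins Chga, Chgb and Scg2, the convertase gene Pcsk1, the calcium sensor gene Syt1 and the receptor gene Ret. The list was drawn up with the adrenal comparison of ozone with air in view, so the adrenal differences below are descriptions. All 10 symbols were present in all 6 tables. Messenger RNA was sequenced from adrenal gland, lung, hypothalamus, liver, adipose tissue and muscle of male Wistar-Kyoto (WKY) rats, an inbred strain, that breathed either ozone at 0.8 ppm or air, each for 4 h. No age, genotype, surgery or other agent is named for either exposure. The libraries of ozone and of air numbered 6 and 5 in adrenal, 6 and 6 in each of lung, hypothalamus and liver, 5 and 5 in adipose tissue, while muscle had 5 and 6. Ozone libraries carry numbers from 13 and air libraries numbers up to 12, so any order of handling or collection cannot be told apart from ozone.

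Chromaffin cells of the adrenal medulla store catecholamines in dense-core granules together with peptides, and release both by calcium-triggered exocytosis when the splanchnic nerve fires. The granins are the bulk proteins of these granules and help to form them, while prohormone convertases cut the precursors into active peptides inside them. RET is the receptor tyrosine kinase of the GDNF family of neurotrophic factors, which it binds through GFRA co-receptors, and it is best known for its part in the development of sympathetic, enteric and sensory neurons.

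The promoters of 4 members are printed because they belong to the members with the largest adrenal differences (Ret, Vgf, Gal) or hold the same element as one of them (Scg2). Each runs from 250 bases before to 50 bases after the RefSeq start site of the gene, on the minus strand of the GRCr8 rat build, which is not the build named for the expression tables. The regions are chr12:25276971-25277270 for Vgf, chr9:88256817-88257116 for Scg2, chr1:210084523-210084822 for Gal and chr4:153040507-153040806 for Ret. Capitals mark the cyclic AMP response element (CRE) in Vgf and Scg2 and its short form in Gal. Ret holds no capitals.
Vgf: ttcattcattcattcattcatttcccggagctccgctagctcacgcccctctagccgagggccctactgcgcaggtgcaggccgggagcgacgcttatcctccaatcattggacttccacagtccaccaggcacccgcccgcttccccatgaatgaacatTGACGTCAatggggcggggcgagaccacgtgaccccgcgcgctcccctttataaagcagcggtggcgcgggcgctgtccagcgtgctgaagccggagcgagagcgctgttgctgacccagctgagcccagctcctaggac
Scg2: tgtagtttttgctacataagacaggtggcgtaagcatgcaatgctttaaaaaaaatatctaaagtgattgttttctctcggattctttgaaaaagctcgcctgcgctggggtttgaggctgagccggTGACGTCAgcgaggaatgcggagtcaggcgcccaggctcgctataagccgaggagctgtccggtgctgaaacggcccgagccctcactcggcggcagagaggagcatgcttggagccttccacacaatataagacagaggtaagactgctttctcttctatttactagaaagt
Gal: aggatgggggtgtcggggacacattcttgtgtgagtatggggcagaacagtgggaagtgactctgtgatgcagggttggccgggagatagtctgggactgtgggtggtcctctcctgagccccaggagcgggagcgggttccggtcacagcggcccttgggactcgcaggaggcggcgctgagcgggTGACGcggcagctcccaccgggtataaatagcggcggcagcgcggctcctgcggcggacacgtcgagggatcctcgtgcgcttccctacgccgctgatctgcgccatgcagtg
Ret: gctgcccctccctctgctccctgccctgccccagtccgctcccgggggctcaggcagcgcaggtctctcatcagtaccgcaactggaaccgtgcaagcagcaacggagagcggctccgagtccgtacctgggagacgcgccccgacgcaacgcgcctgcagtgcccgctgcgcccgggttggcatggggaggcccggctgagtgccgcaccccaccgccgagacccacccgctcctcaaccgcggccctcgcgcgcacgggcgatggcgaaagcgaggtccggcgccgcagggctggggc

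RefSeq promoters were matched for 7 of the 10 members, and Penk, Chga and Pcsk1 had no entry. Both strands were searched for the full CRE (TGACGTCA), its short form (TGACG, which lies inside the full CRE), the AP-1 element (TGANTCA), the EGR element (GCGNGGGCG) and the palindromic glucocorticoid response element. The full CRE was found in Vgf at -90 to -83 and in Scg2 at -123 to -116 from the start site. Gal held the short form alone, at -63 to -59. The EGR letters were found in Vgf at -26 to -18 and in Syt1 at -24 to -16. No searched letters were found in Ret, Adcyap1 or Chgb. Over all 33469 rat promoters of the same length, the full CRE was present in 1.83%, the short form in 21.2%, the AP-1 letters in 7.33%, the EGR letters in 4.98% and the glucocorticoid element in 0.0149%. These are matches of letters within a 300-base window and no measure of binding.

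Values are normalised read counts as the authors deposited them, and depth ran from 8854272 to 12769464 recovered reads per library in adrenal and from 9162216 to 18848151 in the other 5 tissues. Every tissue was tested on its own with limma, over genes whose mean value there was 10 or more, on log2(value + 1), and a gene passed at a Benjamini-Hochberg adjusted p under 0.05 over all genes tested. That mean was taken over both exposures, so a gene could reach it through a single exposure. Fold changes are on that log2(value + 1) scale, ozone over air, ± standard error, and understate the change of low genes. In every tissue the median of all genes tested was within 0.02 of 0. The labels do not say that each library came from a different rat, so p-values measure the spread between libraries. Adrenal libraries ozone 16 and air 8 stood apart from the others of their tissue. The summed value of the 76 genes whose symbols begin with SNORD, small nucleolar RNAs that mostly lack a poly(A) tail, was 27315 in ozone 16 and 104975 in air 8, against 418 to 5843 in the other adrenal libraries. The same pair had the lowest summed adrenal cortex markers of their groups, at 421700 in ozone 16 and 280300 in air 8. Their summed chromaffin markers were the lowest too, at 6626 in ozone 16 and 4147 in air 8. By the mean log2 level of the same markers neither was lowest. Ozone 16 had 7.41, above ozone 20 at 7.14, and air 8 had 7.17, above air 9 at 6.98. The pair also had the highest summed glia and Schwann markers of their groups, at 1744 in ozone 16 and 3357 in air 8. Adrenal results are therefore also given without both.

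In the adrenal gland Ret, Vgf, Gal and Penk were higher in all 6 ozone libraries than in any air library, while the granins, Pcsk1 and Syt1 overlapped between the groups. Of the 10 members, 9 reached the mean of 10, and 4 of these passed the threshold, all higher after ozone. Over all 14026 genes tested in adrenal 18.6% passed, 9.23% as higher and 9.38% as lower after ozone. Groups did not overlap for 12.9% of genes, and 6.49% had every ozone library above every air library. The members were picked on this contrast, so nothing is read from their count. The median log2 fold change of the 9 was 0.76. In bulk tissue, fewer cells of a type and less RNA per cell cannot be told apart, and neither can more of each.

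Among the peptide precursors, Vgf, which encodes a granin-like precursor of several peptides, had 59.2 normalised counts in the lowest ozone library, a median of 65.5 and 71.4 in the highest, against 5.64, 6.74, 28.7, 13.8 and 11.8 in air libraries 2, 6, 8, 9 and 11. The ozone libraries lay close together and the air libraries were spread widely, with the highest air value in library 8. Their means were 65.3 ± 3.97 after ozone (SD, n = 6) and 13.3 ± 9.24 in air (SD, n = 5), a log2 fold change of 2.42 ± 0.33. The spread between ozone libraries was 6.08% of their mean, against 69.3% in air, on 385 reads over the ozone libraries and 67 over the air libraries.

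Gal, the precursor of the neuropeptide galanin, ran from 10.6 through a median of 15.9 to 29.9 after ozone, and read 2.42, 2.25, 4.78, 4.31 and 3.36 in air libraries 2, 6, 8, 9 and 11. The groups were fully separate, and the highest value of each came from a library with high SNORD values. Means were 17.2 ± 6.77 after ozone and 3.42 ± 1.12 in air, a log2 fold change of 2.01 ± 0.32. Gal was a low gene here, with 98 reads over 6 ozone libraries and 18 reads over 5 air libraries.

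Penk encodes preproenkephalin, the source of the enkephalins that chromaffin cells release with catecholamines. It had 316 to 397 normalised counts after ozone, with a median of 370, against 213, 188, 273, 210 and 185 in air libraries 2, 6, 8, 9 and 11. No library of one group reached the other, and both groups were tight. The means of 361 ± 35.1 after ozone and 214 ± 35.3 in air gave a log2 fold change of 0.76 ± 0.13. Adcyap1, the precursor of PACAP, which splanchnic nerve endings release onto chromaffin cells, did not reach the mean of 10. It had 17.7 in ozone library 16 and 1.9 to 2.93 in the other ozone libraries, against 28.7 in air library 8 and 1.72 to 4.2 in the other air libraries. Its only values above 5 thus came from the same pair of libraries that had high SNORD sums.

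The receptor gene Ret showed the widest separation. Its lowest, median and highest ozone values were 91.8, 123 and 220, against 4.03, 7.87, 25.1, 27.6 and 10.1 in air libraries 2, 6, 8, 9 and 11. Every ozone library exceeded every air library by more than the whole range of the air group. The means were 131 ± 47.4 after ozone and 14.9 ± 10.7 in air, on 788 and 77 reads, a log2 fold change of 3.28 ± 0.42 that ranked number 33 by size among all 14026 genes tested. Within the exposures, Ret and Vgf varied together across the 11 libraries (Pearson's r = 0.79 on log2 values with group means removed), and r was 0.82 without ozone 16 and air 8. Both values describe libraries that share depth and dissection. Ret and Vgf are named together after their values were seen. Over all 11 libraries other members varied together more closely, among them Adcyap1 and Pcsk1 (r = 0.90) and Pcsk1 and Syt1 (r = 0.82). Without ozone 16 and air 8 these had r = -0.07 and r = 0.16.

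The granins were far more abundant and differed less. Chgb, chromogranin B, had 5320 in ozone library 16 and 9340 to 11600 in the other ozone libraries, against 2200 in air library 8 and 5860 to 8390 in the other air libraries. It was lowest in the SNORD-rich library of each group, and the groups overlapped only through ozone 16. Its log2 fold change was 0.77 ± 0.30 over all libraries and 0.61 ± 0.12 without that pair. Chga, chromogranin A, ran from 6380 through a median of 8040 to 10600 after ozone, against 5060, 7110, 5160, 4840 and 7300 in air libraries 2, 6, 8, 9 and 11. Here 4 of 6 ozone libraries lay above all air libraries, and the log2 fold change was 0.50 ± 0.17. Scg2, secretogranin II, had 1970 to 3300 after ozone and 1570 to 2300 in air, with a log2 fold change of 0.29 ± 0.16 and overlapping groups.

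Pcsk1, the prohormone convertase that acts in neuroendocrine granules, had 284 in ozone library 16 and 103 to 147 in the other ozone libraries, against 190 in air library 8 and 60.5 to 97.8 in the other air libraries. The SNORD-rich pair was thus highest in each group, and without it all remaining ozone libraries lay above all remaining air libraries. The log2 fold change was 0.72 ± 0.31 over all libraries and 0.81 ± 0.17 without the pair. Syt1, the calcium sensor of fast vesicle fusion, had 154 to 326 after ozone and 140 to 403 in air, and its log2 fold change of -0.01 ± 0.26 had the opposite sign without the pair, at 0.09 ± 0.17. The highest Syt1 value of each group was again that of the SNORD-rich library.

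Without ozone 16 and air 8, 7 of the 9 members passed, with Chga at 0.53 ± 0.16, Chgb at 0.61 ± 0.12 and Pcsk1 at 0.81 ± 0.17 added, while 30.1% of all genes tested passed and 15.1% passed as higher. Ret stood at 3.62 ± 0.43 and Vgf at 2.74 ± 0.25 in that fit. Gal at 1.95 ± 0.32 and Penk at 0.82 ± 0.11 were close to their values over all libraries. Some relations among members were weaker without the pair: within exposures Adcyap1 and Pcsk1 had r = 0.90 over 11 libraries and r = -0.07 over the remaining 9, and Chgb and Pcsk1 had r = -0.91 and r = -0.33. Chga and Chgb had r = 0.59 with the pair and r = 0.79 without it.

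**Figure D1:**
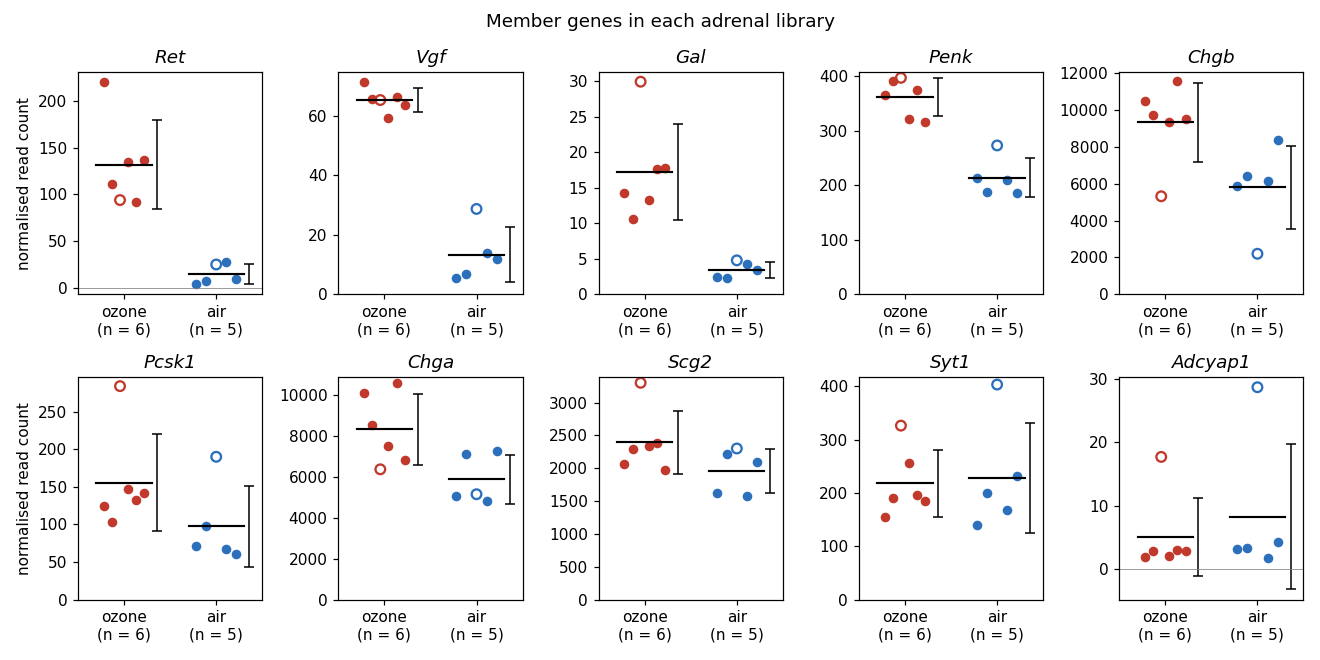
Normalised read count of each member in every adrenal library, ozone (n = 6) left and air (n = 5) right. Horizontal lines are means, error bars are SD, and open circles are libraries ozone 16 and air 8. Ret, Vgf, Gal and Penk do not overlap between the groups, and the open circles are the extremes for Chgb, Pcsk1, Syt1 and Adcyap1.

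The defining markers of chromaffin cells were present in every adrenal library as a summed list. None of 12 tested chromaffin markers (among them Dbh and Ddc, which are also synthesis enzymes, and Slc18a1, Phox2a and Chrna3) passed limma, 2 had an unadjusted p under 0.05, and edgeR called 0 and DESeq2 called 2. The 2 under 0.05 were Dbh (0.68 ± 0.24, limma unadjusted p = 0.0127) and Slc18a1 (0.39 ± 0.14, limma unadjusted p = 0.0149), both higher after ozone. Th, which rose by 0.99 ± 0.20, was not on this list. The median log2 fold change of the 12 markers was 0.04, and their summed values ran from 6630 to 8910 after ozone and from 4150 to 7810 in air. With their mean log2 level as a covariate, the fold changes were 3.50 ± 0.48 for Ret, 2.49 ± 0.38 for Vgf, 2.06 ± 0.37 for Gal and 0.79 ± 0.15 for Penk. Adrenal cortex markers summed to 422000 to 747000 after ozone and 280000 to 611000 in air. Of 11 tested cortex markers 3 rose, namely Scarb1, Mrap and Fdx1, which are named here after their values were seen, and the list's median was 0.39. The part of the cortex markers in the members' differences was not tested. Of 8 glia and Schwann markers and 10 neuron markers none passed limma, edgeR or DESeq2, with 0 and 1 at an unadjusted p under 0.05. Of 5 adipocyte markers 2 rose, Lep by 1.52 ± 0.23 and Cidec by 1.23 ± 0.34 (limma adjusted p = 0.000845 and 0.0222), and the list summed to 2890 to 9040 after ozone and 1810 to 4350 in air. Of 6 lung epithelium markers Ager rose by 1.84 ± 0.41 (limma adjusted p = 0.00735), with sums of 197 to 4030 after ozone and 53.4 to 1050 in air and a median of 2.47. The part of these 2 lists in the members' differences was not tested.

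Among genes that build and load the granule, Ptprn, Scg3 and Cpe rose. Of 11 tested genes of granule biogenesis and processing 3 rose and none fell by limma, where 9.23% of all genes rose and 9.38% fell. By edgeR 2 of the 11 passed. The list's median log2 fold change was 0.42 against 0 for all genes. Ptprn, a membrane protein of dense-core granules, averaged 655 ± 108 after ozone and 408 ± 97.2 in air (log2 fold change 0.69 ± 0.16, limma adjusted p = 0.0102). Scg3, secretogranin III, which binds chromogranin A during granule formation, averaged 226 ± 17.3 after ozone and 147 ± 32.6 in air (0.64 ± 0.15, limma adjusted p = 0.0111), with no overlap between groups. Cpe, the carboxypeptidase that trims peptides after the convertases, averaged 822 ± 98.7 after ozone and 596 ± 162 in air (0.49 ± 0.16, limma adjusted p = 0.045). The Cpe call was the least stable of these, since each fit that left out a library, except the fit without air 8, lost it (10 of 11), and adjusted p over all alternatives ran from 0.000289 to 0.133. Ptprn and Scg3 passed in all 22 alternatives.

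Of 16 tested genes of regulated exocytosis, the release machinery, 1 rose and 2 fell, where 9.23% of all genes rose and 9.38% fell, and the list's median was 0. Sytl4, which encodes granuphilin, a Rab27 effector that docks dense-core granules at the plasma membrane, had 70.6 to 117 in ozone libraries and 360 to 637 in air libraries. Each ozone library held less than any air library, and the means of 93.7 ± 19.1 after ozone and 447 ± 112 in air gave a difference of -2.24 ± 0.19 on the log2 scale (limma adjusted p = 1.03e-05). Cadps2, which primes dense-core granules for fusion, averaged 324 ± 50.5 after ozone and 436 ± 33.8 in air (-0.44 ± 0.13, limma adjusted p = 0.0334), again without overlap. Cplx1, complexin 1, a SNARE-binding regulator, averaged 37.1 ± 9.5 after ozone and 16.6 ± 14.9 in air (1.45 ± 0.43, limma adjusted p = 0.0336), but air library 8 at 41.9 lay among the ozone libraries. Of the 11 fits that left out a library, those without air 2, 9 or 11 or ozone 14, 15 or 17 lost the Cadps2 call, and all but those without air 8, air 9 or ozone 17 lost the Cplx1 call. With the chromaffin covariate Cadps2 had an adjusted p of 0.102, and edgeR gave Cplx1 an adjusted p of 0.09.

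Of 7 other tested neuropeptide precursors only Nmu, neuromedin U, rose by limma. It averaged 18.1 ± 4.95 after ozone and 4.82 ± 6.63 in air (2.34 ± 0.59, limma adjusted p = 0.0145), with air library 9 at 16.4 inside the ozone range of 13.1 to 24.7, and edgeR gave an adjusted p of 0.0574. Nmu, too, reached the mean of 10 only through the ozone libraries. The list's median was 0.38, and 13 of its 20 genes were below the mean of 10. Pdyn, the precursor of dynorphin and the highest of the tested precursors outside the members by normalised count, had 330 ± 18.4 after ozone and 343 ± 47.6 in air and is named after its values were seen. Of 4 tested receptors of the peptides Adcyap1r1, the PACAP receptor, rose, and the list's median was -0.03. It had 351 to 416 after ozone and 242 to 311 in air, with no overlap (0.45 ± 0.11 on the log2 scale, limma adjusted p = 0.0141). With the chromaffin markers as a covariate its adjusted p was 0.0637.

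The co-receptor that pairs with RET moved the same way as Ret. Gfra1, the co-receptor that binds GDNF, had 88.9 to 121 in ozone libraries and 34.7, 20.2, 41.9, 75.8 and 21 in air libraries 2, 6, 8, 9 and 11. The groups did not overlap, with air 9 the nearest to the ozone group, and the log2 fold change was 1.60 ± 0.29 (limma adjusted p = 0.00248, at most 0.00781 over 22 alternatives). It was the only gene of 5 tested GDNF family ligands and co-receptors to pass, and the list's median was 0.55. Gdnf, Nrtn and Artn, which encode ligands of the family, averaged under 3 normalised counts in both groups. Persephin, encoded by Pspn, averaged 13.2 ± 1.13 after ozone and 7.31 ± 4.11 in air (0.99 ± 0.41, limma adjusted p = 0.116).

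Genes that follow or restrain ERK signalling, which receptor tyrosine kinases switch on, did not move together. Of 10 tested, 1 rose and 2 fell, with a median of 0.12. Etv1 and Etv5, ETS transcription factors that are commonly induced through ERK, were lower in every ozone library than in any air library. Etv1 averaged 203 ± 30.5 after ozone and 481 ± 209 in air (-1.17 ± 0.21, limma adjusted p = 0.00238). Etv5 averaged 135 ± 28.1 after ozone and 203 ± 17.6 in air (-0.61 ± 0.15, limma adjusted p = 0.0147, and 0.0527 with the chromaffin covariate). Spry1, a feedback inhibitor of receptor tyrosine kinases, averaged 487 ± 58.4 after ozone and 356 ± 32 in air (0.45 ± 0.12, limma adjusted p = 0.0208), and the fits without air 2, ozone 17 or ozone 20 and the fit with the chromaffin covariate (adjusted p = 0.0858) lost that call. Of the 4 catecholamine synthesis enzymes Th, the rate-limiting tyrosine hydroxylase, rose. It had 4340 to 6370 after ozone and 1670 to 3990 in air, with no overlap (0.99 ± 0.20 on the log2 scale, limma adjusted p = 0.00449), beside a list median of 0.53. Over these 7 lists together 13 of 57 tested genes passed, 9 higher and 4 lower, next to 18.6% of all genes. Without ozone 16 and air 8 the count was 21, next to 30.1% of all genes, and each of the 13 passed there too, at limma adjusted p of at most 0.0211. With the chromaffin covariate 7 passed.

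In the lung, Gal and Syt1 rose and the other members tested did not pass. Of the 10 members 6 were tested and 2 passed, both higher and both without overlap, where 9.51% of 14828 genes passed as higher and 8.18% as lower. Groups did not overlap for 9.54% of genes, and 5.54% had every ozone library above every air library. Gal had 49.7, 40.9, 53.7, 31.3, 27.1 and 41.4 in ozone libraries 13, 14, 15, 16, 19 and 20, against 2.91, 4.02 and 2.77 in air libraries 1, 2 and 9 and 0 in air libraries 7, 8 and 10. The groups were far apart, on 243 reads over the ozone libraries and 10 over the air libraries. Means of 40.7 ± 10.2 after ozone and 1.62 ± 1.82 in air differed by 4.31 ± 0.46 on the log2 scale (limma adjusted p = 2.2e-05), which ranked number 2 by size among the genes tested in lung. Gal reached the mean of 10 there only through the ozone libraries, so its call and rank are descriptions.

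Syt1 had 103 to 147 normalised counts in ozone lungs, with a median of 133, and 24.8 to 41 in air lungs, with a median of 35.2. Again no library crossed over. Means were 130 ± 15.9 after ozone and 34.4 ± 6.84 in air (1.90 ± 0.15, limma adjusted p = 1.91e-06). Penk at 0.70 ± 0.27 (limma adjusted p = 0.0895), Pcsk1 at 0.46 ± 0.19 (0.106) and Scg2 at 0.51 ± 0.41 (0.434) did not pass. Pcsk1 was well detected there, with 500 ± 104 after ozone and 369 ± 110 in air. Ret, at 189 ± 41.3 after ozone and 186 ± 25.1 in air, differed by 0.01 ± 0.15 on the log2 scale (limma adjusted p = 0.978).

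Markers of pulmonary neuroendocrine cells, the peptide-storing cells of the airway, summed to 918 to 1150 in ozone lungs and 1120 to 1470 in air lungs. Of 3 of them tested none rose and 1, Cplx2, fell (-0.35 ± 0.09, limma adjusted p = 0.0166). Chga, Chgb, Vgf and Adcyap1 were below the mean of 10 in lung, with 10.3 ± 8.2, 9.57 ± 9.87, 1.77 ± 1.95 and 2.59 ± 1.74 after ozone, against 7.18 ± 7.29, 5.72 ± 6.87, 0.816 ± 0.986 and 1.46 ± 0.99 in air. Of 5 chromaffin markers tested in lung 2 rose, Cyb561 and Gata2, and the summed list ran from 3470 to 4280 after ozone and from 2480 to 3040 in air; its part in the lung results was not tested. Of 6 lung epithelium markers Sftpb rose by 0.65 ± 0.13 and Sftpa1 by 0.49 ± 0.11 (limma adjusted p = 0.00279 and 0.00741), with sums of 272000 to 369000 after ozone and 191000 to 287000 in air. Of 6 glia and Schwann markers Erbb3 rose by 0.87 ± 0.12 (limma adjusted p = 0.000233), and of 8 adrenal cortex markers Fdx1 rose by 0.55 ± 0.15 (limma adjusted p = 0.0211). Their part in the Gal and Syt1 differences was not tested. Neither of 2 tested neuron markers passed in any tool or had an unadjusted p under 0.05.

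In adipose tissue, Penk and Pcsk1 rose, and Gal and Scg2 were seen almost only after ozone at very low counts. Of 3 members tested 2 passed, where 7.32% of 14252 genes passed, 3.87% as higher and 3.45% as lower. Groups did not overlap for 8.81% of genes, with every ozone library above in 4.38%. Penk had 233, 193, 154, 231 and 220 in ozone libraries 16, 19, 21, 22 and 23, against 83.5, 109, 86.4, 118 and 109 in air libraries 2, 5, 6, 9 and 12. The lowest ozone value was above the highest air value. Means of 206 ± 33.4 after ozone and 101 ± 15.3 in air differed by 1.02 ± 0.17 on the log2 scale (limma adjusted p = 0.00437, at most 0.0157 in fits that left out a library).

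Pcsk1 in adipose tissue had 62.6, 26.1, 57.3, 64.5 and 49 in ozone libraries 16, 19, 21, 22 and 23, against 17.5, 16.7, 30.9, 20.9 and 18.4 in air libraries 2, 5, 6, 9 and 12. Ozone 19 lay below air 6, and the other ozone libraries lay above all air libraries. The log2 fold change was 1.24 ± 0.29 (limma adjusted p = 0.0241). Leaving out air 2, 5, 9 or 12 or ozone 16 or 23 took the adjusted p past 0.05, to at most 0.0611. Gal had 8.42, 4.54, 7.43, 14.6 and 2.18 in the ozone libraries, or 34 reads, against 0, 0, 0, 1.74 and 1.75 in the air libraries, or 4 reads. The groups did not overlap, and with no filter on low values the log2 fold change was 2.30 ± 0.50 (limma adjusted p = 0.02). Scg2 had 9 reads over 5 ozone libraries, 5 of them in ozone 19, and 0 over 5 air libraries. Ret at 86.8 ± 21.5 after ozone and 84.3 ± 44.8 in air did not pass (0.13 ± 0.30, limma adjusted p = 0.847). Of 5 adipocyte markers Cidec rose by 1.43 ± 0.18 (limma adjusted p = 0.000953), and the list summed to 282000 to 444000 after ozone and 244000 to 308000 in air. Star, from the adrenal cortex list, was lower in every ozone library than in any air library (-0.70 ± 0.19, limma adjusted p = 0.0458). Skeletal muscle markers summed to 402 to 9580 after ozone and 789 to 68500 in air, and 0 of 4 passed limma, edgeR or DESeq2 or had an unadjusted p under 0.05, with a median of -1.64. The part of these markers in the Penk and Pcsk1 differences was not tested.

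In muscle, Pcsk1 was higher and Ret lower after ozone, in a tissue where 43.7% of 13043 genes passed, 21.6% as higher and 22.1% as lower, and groups did not overlap for 24.3%. Pcsk1 had 87.1, 23.3, 50.8, 49.6 and 53.4 in ozone libraries 13, 15, 16, 23 and 24, against 4.44, 18.2, 4.68, 35.8, 15.6 and 17.7 in air libraries 2, 3, 4, 7, 9 and 11. Only ozone 15 fell within the air range. The log2 fold change was 1.86 ± 0.48 (limma adjusted p = 0.00753), on means of 52.8 ± 22.7 after ozone and 16.1 ± 11.5 in air.

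Ret in muscle had 70.4, 48.5, 47.5, 57.4 and 59.9 in the same ozone libraries, against 201, 71.6, 125, 120, 63.2 and 75.6 in the same air libraries. Ozone 13 overlapped with air 9, and air 2 was the highest. Means were 56.7 ± 9.32 after ozone and 109 ± 52 in air (-0.83 ± 0.27, limma adjusted p = 0.0221), and without ozone 16 the adjusted p was 0.0538. Gfra1 fell too, to 41.7 ± 6.93 after ozone against 91.9 ± 33.4 in air, without overlap (-1.07 ± 0.23, limma adjusted p = 0.00239). Glia and Schwann markers summed to 194 to 643 in ozone muscles and 1200 to 2550 in air muscles, and 5 of 6 tested fell, with a median of -2.03. Of 11 ERK feedback genes none rose and 8 fell in muscle, with a median of -1.09. Summed SNORD values ran from 354 to 3015 after ozone and from 4382 to 29686 in air, so they too separated the groups. Skeletal muscle markers summed to 860000 to 1400000 after ozone and 337000 to 722000 in air, and 3 of 4 tested rose. Mb, the remaining marker, had the opposite sign and did not pass. It averaged 9620 ± 4470 after ozone and 16600 ± 6750 in air (-0.82 ± 0.36, limma adjusted p = 0.0802). The part of the glial markers, the muscle fibre markers and the SNORD values in the Ret and Pcsk1 differences was not tested. Penk was below the mean of 10 in muscle, at 2.02 to 5.52 after ozone on 15 reads and 6.55 to 13.1 in air on 65 reads, without overlap and with every ozone library lower. Tested with no filter, its log2 fold change was -1.39 ± 0.33 (limma adjusted p = 0.00505).

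**Figure D2:**
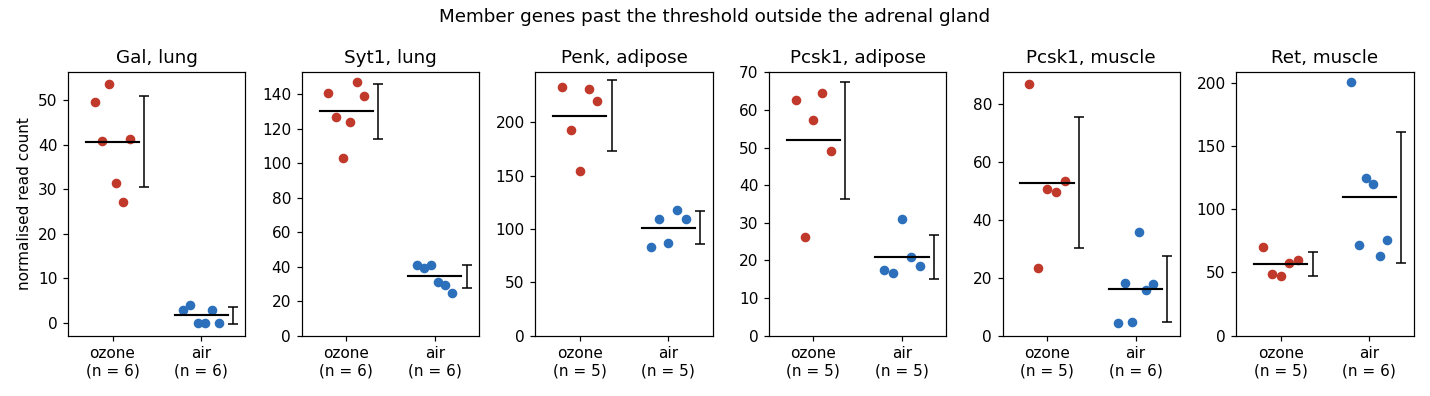
Normalised read count in every library for the 6 member and tissue pairs past the threshold outside the adrenal gland, ozone left and air right. Lines are means and bars SD. Gal and Syt1 in lung and Penk in adipose tissue do not overlap, Pcsk1 overlaps through 1 ozone library in each of adipose tissue and muscle, and Ret is lower after ozone in muscle.

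None of the 10 members passed in the hypothalamus, where all 10 were well expressed and 1.41% of 15217 genes passed, 0.789% as higher and 0.624% as lower. Groups overlapped for all 10 members, where 2.15% of genes had groups that did not overlap and 1.17% had every ozone library above. No member had an unadjusted p under 0.05 there with limma, and edgeR and DESeq2 also called 0. Gal had the largest fold change, 0.68 ± 0.46 (limma adjusted p = 0.521), with 178 to 738 after ozone and 92.9 to 853 in air, so that the highest library was air 1. Ret averaged 767 ± 148 after ozone and 607 ± 238 in air (0.39 ± 0.20, limma adjusted p = 0.396). Vgf at 0.04 ± 0.17, Penk at 0.04 ± 0.20, Scg2 at 0.11 ± 0.15 and Syt1 at 0.05 ± 0.12 had fold changes no larger than their standard errors. Chga at 0.23 ± 0.14, Chgb at 0.28 ± 0.15, Pcsk1 at -0.17 ± 0.23 and Adcyap1 at -0.21 ± 0.20 did not pass either. This was the only tissue in which Adcyap1 reached the mean of 10, at 771 ± 275 after ozone and 863 ± 147 in air.

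In liver 3 members were tested and none passed with limma, edgeR or DESeq2, or had an unadjusted p under 0.05, where 11.5% of 12573 genes passed, 6.74% as higher and 4.72% as lower. All 3 overlapped between groups, where 7.62% of genes did not overlap and 4.77% had every ozone library above. Pcsk1 averaged 107 ± 38.4 after ozone and 79.8 ± 18.7 in air (0.39 ± 0.22, limma adjusted p = 0.324). Chga had a median of 8.99 and a highest value of 26.5 after ozone, against a median of 2.49 and a highest value of 41.2 in air. The same 5 of 12 libraries, ozone 13, 16 and 18 and air 2 and 7, had the highest Chga, the highest Chgb and the highest summed adrenal cortex markers. In liver this sum includes Scarb1 and Fdx1, which averaged 835 and 717 after ozone and 767 and 692 in air. Star, from the same list, ranged from 7.31 to 378 over the liver libraries. Liver air 2, with the highest Chga and a Chgb of 45.8, had 378 for Star, 672 for Cyp11a1 and 29.9 for Th, against at most 234, 282 and 25.5 in the other liver libraries. The chromaffin markers differed among themselves. Dbh had 27.1 in air 2, 20.6 in ozone 13 and 10.6 in ozone 16, and at most 6.13 in the other liver libraries. Slc18a1, the vesicular monoamine transporter of chromaffin granules, had 0 reads in all 12 liver libraries. Without ozone 16 and air 2 the Chgb fold change was 0.14, against -0.01 over all, and it did not pass in either fit. What these reads in liver come from was not tested.

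**Figure D3:**
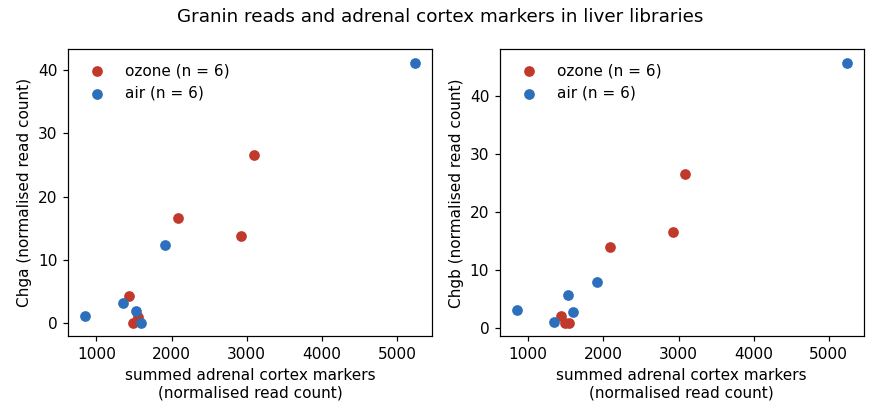
Normalised read count of Chga (left) and Chgb (right) in 12 liver libraries (vertical axis) against the summed normalised count of adrenal cortex marker genes in the same library (horizontal axis), with ozone and air marked by colour. The air library with the highest marker sum also has the highest Chga, 41.2, and Chgb, 45.8, and the 5 libraries with the highest sums are those with the highest values of both genes. The sum includes Scarb1 and Fdx1, with means of 835 and 717 after ozone and 767 and 692 in air.

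The lung response was set against that of each other tissue apart from adrenal with a test of the difference of fold changes, over the genes tested in both tissues. The Syt1 response was larger in lung than in hypothalamus by 1.85 ± 0.18 (limma adjusted p = 6.44e-07). Gal was larger in lung than in hypothalamus by 3.63 ± 0.67 (limma adjusted p = 0.00185), but with a pseudocount of 10 the difference was 1.46 and the adjusted p was 0.103. These were 2 of 6 members tested, where 3.74% of genes passed. Gal entered this comparison only through its values in the ozone lungs, so its result is a description. For Ret the lung response exceeded that of muscle by 0.84 ± 0.31 (limma adjusted p = 0.0471), and 16 of 23 fits that left out a library lost it. Pcsk1 differed by -1.39 ± 0.53 (limma adjusted p = 0.0517). In that comparison 28.6% of genes passed. Against liver the difference for Pcsk1 was 0.07 ± 0.30, and against adipose tissue the differences were -0.32 ± 0.35 for Penk, -0.78 ± 0.33 for Pcsk1 and -0.12 ± 0.33 for Ret, none of which passed. Of all genes, 6.85% passed against liver and 4.05% against adipose tissue.

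**Figure D4:**
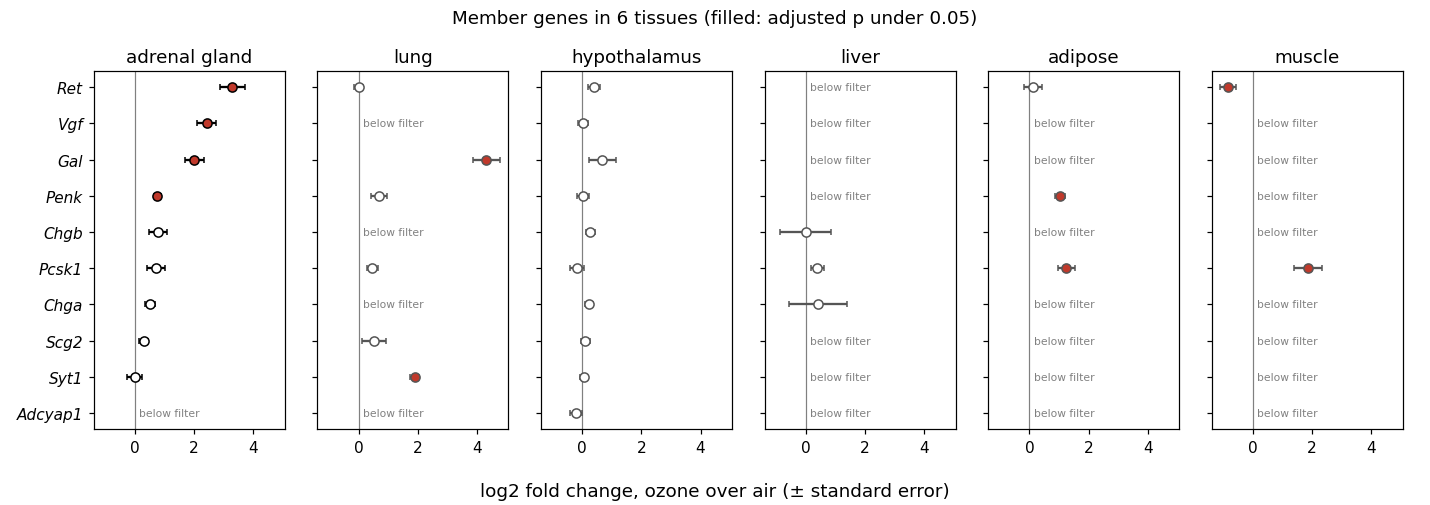
Log2 fold change, ozone over air, on the log2(value + 1) scale for each member (rows) in each tissue (panels), with standard error. Filled points passed limma at an adjusted p under 0.05, open points did not, and members below a mean of 10 are marked as below the filter. Ret is at 3.28 in adrenal, 0.01 in lung and -0.83 in muscle, and Gal is at 2.01 in adrenal and 4.31 in lung.

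In air, levels set across tissues as CPM, a gene's recovered reads scaled to a common library total, from tables that the authors normalised separately, placed the hypothalamus highest for 8 of the 10 members and the adrenal gland highest for Chga and Chgb. Ret stood at 51.7 ± 21.3 in hypothalamus (n = 6), 15.3 ± 1.96 in lung (n = 6), 7.31 ± 3.41 in muscle (n = 6), 5.61 ± 2.93 in adipose tissue (n = 5), 1.39 ± 0.961 in adrenal (n = 5) and 0.277 ± 0.371 in liver (n = 6). The ranges of lung and muscle, of muscle and adipose tissue, and of adrenal and liver overlapped, while hypothalamus lay above lung and adipose tissue lay above adrenal. After ozone the adrenal level of Ret was 11.4 ± 4.35 CPM.

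Penk fell into the order hypothalamus (263 ± 84.2), adrenal (20.1 ± 1.97), adipose tissue (6.78 ± 1.22), lung (3.02 ± 1.01), muscle (0.661 ± 0.195) and liver (0.226 ± 0.116), in which no neighbours overlapped. Pcsk1 ran from 74.1 ± 16.8 in hypothalamus through 30.4 ± 8.34 in lung, 9.02 ± 4.19 in adrenal, 5.61 ± 1.59 in liver and 1.39 ± 0.387 in adipose tissue to 1.1 ± 0.858 in muscle. Adrenal overlapped with liver for Pcsk1, and adipose tissue with muscle. Gal was at 24.8 ± 22.6 in hypothalamus, 0.321 ± 0.0899 in adrenal and 0.132 ± 0.149 in lung, with the last pair overlapping, and at most 0.0473 in the other 3 tissues.

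Syt1 had 1300 ± 118 CPM in hypothalamus, 21.2 ± 7.85 in adrenal, 2.85 ± 0.593 in lung and 0.366 ± 0.214 in liver, each range clear of the next, and at most 0.0512 in muscle and adipose tissue. Vgf had 169 ± 29.1 in hypothalamus and 1.22 ± 0.741 in adrenal, also without overlap, and at most 0.0669 elsewhere. Scg2 was at 1050 ± 145 in hypothalamus and 185 ± 29.5 in adrenal, and at most 0.718 elsewhere. Chga was at 562 ± 135 in adrenal and 110 ± 16.7 in hypothalamus. Chgb was at 560 ± 228 in adrenal and 193 ± 45.3 in hypothalamus, and these ranges overlapped through adrenal air 8 at 185. Adcyap1 was at 73 ± 11.5 in hypothalamus and 0.728 ± 0.948 in adrenal, and at most 0.144 elsewhere.

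**Figure D5:**
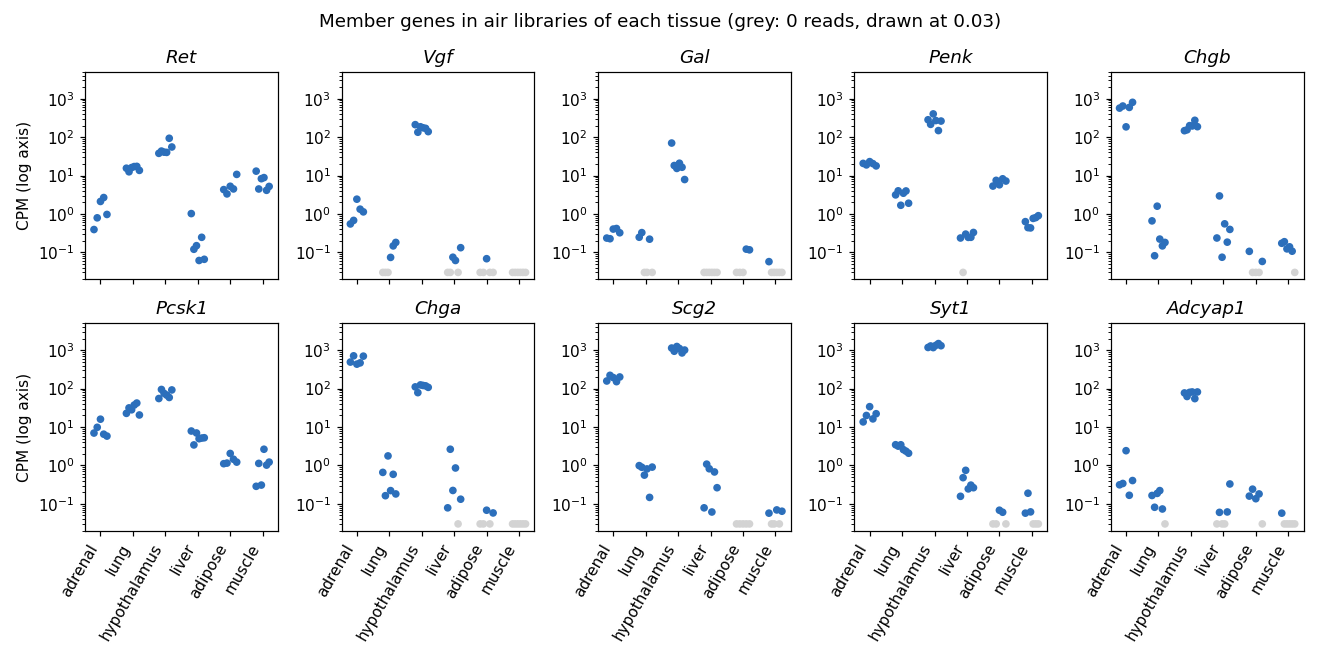
CPM of recovered reads (log axis) of each member in every air library, by tissue. Grey points are libraries with 0 reads, drawn at 0.03. The hypothalamus is highest for all members but Chga and Chgb, which are highest in adrenal at means of 562 and 560.

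The genes whose fold changes were most like those of Ret over the 5 tissues in which it was tested, by root mean square difference over 11844 genes, were Creb3l1 (0.33), Arhgap32 (0.39) and Palm (0.40). Creb3l1, an endoplasmic reticulum-bound transcription factor of the CREB3 family, averaged 5140 in ozone adrenals and 421 in air adrenals, with log2 fold changes of 3.64 in adrenal, -0.04 in lung, 0.04 in hypothalamus, -0.04 in adipose tissue and -1.34 in muscle. For Arhgap32 the adrenal means were 15700 after ozone and 1770 in air. Palm, a membrane-linked protein called paralemmin, averaged 1550 after ozone and 261 in air there.

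Vgf was tested in 2 tissues only, and Tdrd5 (a difference of 0 to 2 decimals), Lekr1 (0.04) and Txndc5 (0.04) were nearest over 13338 genes. Their adrenal log2 fold changes were 2.42, 2.48 and 2.47, beside 2.42 for Vgf. For Gal, over 3 tissues and 12839 genes, the nearest were Tdrd5 (0.68), Trh (1.21) and Rgs16 (1.22). Trh, the precursor of thyrotropin-releasing hormone, averaged 19.3 in ozone lungs and 3.28 in air lungs, without overlap, and rose there by 2.31 ± 0.38 (limma adjusted p = 0.000704). In adrenal its fold change of 1.68 ± 0.89 did not pass (limma adjusted p = 0.221), and its highest values were 32.6 in ozone 16 and 56.2 in air 8. Adcyap1r1, which rose in adrenal, also rose in lung by 1.11 ± 0.24 (limma adjusted p = 0.00554), in liver by 1.63 ± 0.18 (limma adjusted p = 3.86e-05) and in adipose tissue by 0.93 ± 0.24 (limma adjusted p = 0.0344), results named here after their values were seen. It did not pass in hypothalamus (0.03 ± 0.10, limma adjusted p = 0.918) or muscle (0.25 ± 0.15, limma adjusted p = 0.194).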

How the data were processed

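The authors deposited a table of normalised gene values (a signal, in which each library's gene counts carry a single scale factor) for each tissue. This was worked out from the values: 100% of values up to 1000 reads were whole multiples of a library's step within 0.01, and the count tools were run on those recovered reads. Partek, DESeq2 and the rn6 build are listed in the submitters' processing notes without versions or roles. Not given in the sources used here: aligner, counting method, strand setting and annotation. For that reason overlapping, antisense and near-identical genes are uncertain. Of 70 labelled libraries, 68 had a column. The libraries not analysed here are air 7 of adrenal and ozone 17 of muscle. Entries named as dates, 24 in every tissue, were left out. Between replicates, chi-square divided by its degrees of freedom was never under 8.76 (genes with 20 reads or more), so no library repeated another.

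Each tissue was fitted apart with limma 3.58.1 in R 4.3.3 (log2(value + 1), mean of at least 10, mean-variance trend, robust moderation, Benjamini-Hochberg over all genes tested). The fits were tested on simulated data. Alternatives were pseudocounts of 0.5 and 10, no filter or a mean of 50, TMM and median-of-ratios scaling, edgeR 4.0.16 (quasi-likelihood), DESeq2 1.42.0, array weights, a chromaffin covariate, a replicate block and leaving out libraries. Leaving out adrenal ozone 16 with air 8, and liver ozone 16 with air 2, was chosen after seeing the data. edgeR and DESeq2 called 2642 and 3387 genes in adrenal and 2694 and 3302 in lung.

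The members, gene lists and tests were chosen with earlier results of these data known. By rule, all members were named in every tissue. From each partner list, genes past the threshold in adrenal were named, at most 6 by adjusted p. For Ret, Vgf and Gal the 3 genes nearest in fold change were named. Promoter sequences came from RefSeq (GRCr8).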

Additional observations from a re-analysis of the deposited data

Results flagged for a closer look

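Of 66 groups of 5 or 6 libraries of a tested member, 13 had a library set apart from the rest of its group by Dixon's criterion, where chance gives about 1 in 20 groups. In adrenal, ozone library 16 stood apart for Gal (29.9), Chgb (5320), Scg2 (3300) and Pcsk1 (284), and air library 8 for Pcsk1 (190). These are the libraries with the highest SNORD sums, and the report gives the adrenal members with and without them. Adrenal ozone 14 stood apart for Ret at 220.

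In hypothalamus, air library 1 stood apart for Gal (853), air 2 for Chga (921) and air 6 for Ret (1070). In liver, air 2 stood apart for Chga (41.2) and Chgb (45.8), the library with the highest adrenal cortex marker sum, and ozone 13 for Pcsk1 (181). In adipose tissue, air 12 stood apart for Ret (162).

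The difference between tissues passed its own test for 3 responses. Lung exceeded hypothalamus for Gal by 3.63 and for Syt1 by 1.85, and lung exceeded muscle for Ret by 0.84, on the log2 scale. The Ret difference did not pass with the replicate block (limma adjusted p = 0.0579) or in 16 of 23 fits without 1 library.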

How the results depend on the processing

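Counts of members past the threshold were recomputed under each alternative. A filter at a mean of 50 left 2 of the 4 adrenal members and 1 of the 2 in each of lung, adipose tissue and muscle, since fewer members were tested. With no filter 4 members passed in adipose tissue. Array weights, and leaving out adrenal ozone 16 and air 8, gave 7 adrenal members each. The 13 partner genes past the threshold in adrenal became 7 with the chromaffin covariate and 21 without those libraries; the cause was not tested. For the lung response against another tissue, a pseudocount of 10 left 1 member against hypothalamus and 0 against muscle. Fits without 1 library gave 4 to 6 adrenal members, 2 to 3 in lung, 1 to 2 in adipose tissue, 1 to 2 in muscle, 9 to 19 partner genes and 0 to 2 members against muscle, with 0 in hypothalamus and liver throughout. The Gal response in lung over hypothalamus stayed between 3.25 and 3.89 in such fits. Called member fold changes kept their sign in every alternative run. Signs turned only for differences that did not pass: adrenal Syt1 was 0.16 with array weights and 0.09 without the SNORD-rich libraries (without 1 library -0.16 to 0.22). In hypothalamus, Penk was 0 with edgeR, -0.01 with DESeq2 and -0.04 with array weights (-0.12 to 0.17), Vgf -0.10 with array weights (-0.06 to 0.13) and Pcsk1 -0.28 to 0. In liver, Chga was -0.14 with array weights (-0.05 to 1.03), and Chgb 0.04 with a pseudocount of 10 and 0.14 without ozone 16 and air 2 (-0.42 to 0.55). Without 1 library, Ret ran from -0.06 to 0.10 in lung and from -0.03 to 0.40 in adipose tissue, and the differences of lung from liver for Pcsk1 from -0.03 to 0.24 and from adipose tissue for Ret from -0.39 to 0.04. Same-numbered libraries of lung and another tissue deviated together (r over 0.1) in 4 of 7 cases for hypothalamus and 2 of 10 for liver. The counts were 1 of 4 for adipose tissue and 1 of 6 for muscle. These correlations cannot show whether equal numbers are the same rat, since tissues of 1 rat need not deviate alike. The labels do not say so either, and the main fits did not take the numbers as pairs. With the replicate block 0 members passed against muscle, with Ret at 0.83 (limma adjusted p = 0.0579). The counts against the other 3 tissues were as without the block. Over all genes, DESeq2 called 551 in hypothalamus and 1616 in adipose tissue, where limma called 215 and 1043; array weights gave 4822, 3941, 723 and 2302 in adrenal, lung, hypothalamus and liver, where limma without them gave 2609, 2623, 215 and 1440, and adrenal without ozone 16 and air 8 gave 4221. Low reads limit the precision of Gal in air libraries of adrenal (18 reads), lung (10) and adipose tissue (4).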
